A study of Rattus norvegicus with 4 samples.

Results

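Noncoding transcripts at the genes of ion channels, ion pumps and neurotransmitter receptors were examined in rat cortical astrocytes after a short period of oxygen and glucose deprivation (OGD). A locus was taken by the name the tables give it, from the Ensembl column or otherwise from the AceView name. It was a member where that name begins with Kcn, Scn and a digit, Cacn, Clcn, Clic, Trp with C, V or M and a digit, Gri, Grm, Gabr, Chrn, Adra, Adrb, P2r, Atp1, Atp2 or Atp6. Gria2 and names that begin with Grip were left out. Transcripts that share a name on 1 chromosome were summed, which gave 70 member loci among 17290 loci, built from 89 of the 20524 listed transcripts.

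The 4 libraries hold total RNA of astrocytes grown from the cerebral cortex of Wistar rats under 24 h old. The cells sat on coverslips above cultured neurons, apart from them on dots of paraffin, in a serum-free neuronal medium. For all 4 libraries, 48 h of this co-culture in normoxia is listed. The OGD group, called ischemic preconditioning in the titles, has 2 libraries. It was kept in medium without glucose at 1% oxygen for 45 min and then for 24 h in normal medium and air. The control group has 2 libraries and was untreated. Whether the replicates are separate cultures is not stated in the labels. A p-value here weighs a difference against the spread of 2 libraries per group, some or all of which may be technical. The fit draws the spread of each locus toward a trend over all tested loci. Values of a group are given for replicate 1 and then replicate 2.

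Astrocytes take up the potassium and glutamate that active neurons release, and they depend for this on potassium channels and on the sodium and potassium pump. Calcium enters or is released in astrocytes through channels and receptors for ATP and glutamate, and calcium pumps clear it. When oxygen and glucose are lost, the ATP that drives the pumps runs down and ion gradients collapse, which is why these genes are often studied in ischemia. A member here is not the messenger RNA of such a gene. It is a transcript listed as noncoding that carries the gene's name. Reads of the gene's messenger RNA may be among its counts, since how the reads were counted, and whether by strand, is not stated in the labels or tables.

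The names were checked against the RefSeq gene table of rat assembly GRCr8. Of the 70 names, 64 are current symbols, 5 are former names and 1, Atp1a2andAtp1a4, was not matched; all 69 matched genes are protein-coding and lie on the chromosome the tables list. The prefixes also took in genes that are not channels, pumps or receptor subunits as the label has it. Atp11a encodes a lipid flippase, Atp13a1 and Atp13a2 encode transporters of another branch of the P-type ATPases, Grit is now Arhgap32, a GTPase-activating protein gene, and Grinl1a is now Polr2m, an RNA polymerase II subunit gene. Grina encodes a glutamate receptor-associated membrane protein and not a subunit. They were kept as members and are named as such. The Grm, Chrn, Adra and Adrb prefixes found 0 loci.

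The libraries held 2646300 and 2513804 lncRNA counts in the OGD group, and 2607020 and 2631684 in control. Libraries of the same replicate number were more alike across the 9581 loci tested (Pearson r of 0.931 and 0.928, on log2 CPM, counts scaled to library size) than those of the same group (0.911 for OGD and 0.905 for control). Loci named after astrocyte markers were found for 5 of 10 markers and summed to 64.4 and 33.8 CPM in the OGD libraries, against 51.0 and 34.3 CPM in control. Of these, Gfap had the most counts. Names of fibroblast and meningeal markers (2 of 5) summed to 184 and 325 CPM after OGD and to 160 and 344 CPM in control, those of microglia and macrophages (3 of 8) to 10.9 and 35.9 CPM and to 28.4 and 43.4 CPM. Neuron marker names (3 of 10) summed to 37.7 and 20.4 CPM after OGD and to 1.82 and 0.797 CPM in control, and after OGD almost all of them were from Syn1. Endothelial and mural names (2 of 8) summed to 32.0 and 25.0 CPM after OGD and to 3.64 and 7.57 CPM in control, mainly through Abcc9. Oligodendrocyte lineage names (3 of 7) summed to 7.91 and 10.0 CPM after OGD and to 8.01 and 17.1 CPM in control. Of 3 ependymal names, 0 had a locus. Among the 5 astrocyte markers with a locus, Glul had 0 counts in OGD 1 and in both controls and 7 in OGD 2. Gfap, Aldoc, Slc1a2 and Slc1a3 had counts in every library. The part of these cell types in the results on ion channels, pumps and receptors was not tested.

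The members were thinly covered. All 89 transcripts have AceView names, and 37 of them (41.6%) are marked there as unspliced, against 54.2% of all 16282 transcripts with such a name. Their median length was 535 bases, with a range of 257 to 2861, against 686 bases over all transcripts. The median over the members of the mean count per library was 5.38, and that over all loci 12.8. Of the 70 loci, 58 had a count in every library and 3 (Gabrg1, Cacna1h and P2rx2) had 0 counts in all 4. A count of 3 in a library, the limit that a count of 0 allows, corresponds to 1.13 to 1.19 CPM of the lncRNA counts, and covers counting error only. Per length, the median of the mean FPKM (fragments per transcript length and library total, the authors' values) was 0.292 over member transcripts and 0.683 over all transcripts, and 28.1% of member transcripts reached a mean of 1 FPKM, against 41.8% of all.

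Reads were unevenly spread over the members. The locus Kcne1l alone held 24.0% of all member counts, and the 5 loci with the most counts (Kcne1l, Atp1b3, Atp6v1d, Gria3 and Trpv2) held 52.3%. Per length the order was Kcne1l at 28.3 FPKM, the Gria3 transcript at 13.2, the Cacna1c transcript at 9.16, the longer-spanning Atp6v0e1 transcript at 8.48 and a Trpv2 transcript at 6.33 (means of 4 libraries). Means and SDs of the 2 libraries per group were 26.5 ± 9.94 FPKM after OGD and 30.1 ± 5.70 FPKM in control for Kcne1l, and 11.3 ± 5.57 and 15.0 ± 4.35 FPKM for Gria3. Kcne1l was above Gria3 in each library. Gria3 was in turn above Cacna1c in each library, with Cacna1c at 7.65 ± 1.92 FPKM after OGD and 10.7 ± 1.92 FPKM in control, but after OGD their means differed by less than the SD of Gria3. The order of Cacna1c and the Atp6v0e1 transcript changed between libraries.

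**Figure D1:**
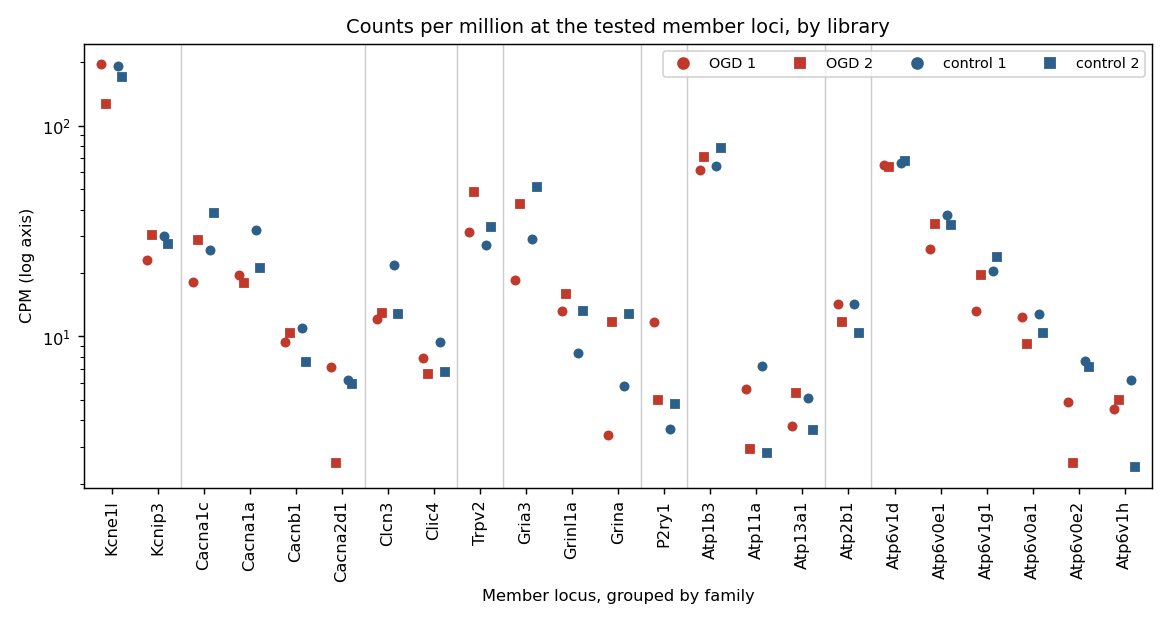
CPM (log axis) at 23 of the 26 tested member loci, with OGD libraries in red left of control libraries in blue, circles for replicate 1 and squares for replicate 2. Loci are grouped by name prefix. Kcne1l lies above the rest with 303 to 530 counts, and at most loci the red and blue points overlap.

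The comparison of OGD with control asked whether noncoding transcripts at these genes change after preconditioning. At 24 h after OGD, 0 of the 26 members with enough counts to be tested passed an adjusted p of 0.05, 0 had an unadjusted p under 0.05, and the smallest unadjusted p was 0.0965 (edgeR's quasi-likelihood test, Benjamini-Hochberg over 9581 loci). DESeq2 also called 0 of 26, with 0 at an unadjusted p under 0.05. Over all tested loci, edgeR called 0.0835% at the adjusted threshold and 2.33% at an unadjusted p under 0.05, and DESeq2 called 0.404% at its adjusted threshold. The count of members called is therefore not set apart from the background.

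The filter on low counts left 44 of the 70 members untested, so 37.1% of them were tested, against 55.4% of all loci. Among the 26, the log2 fold changes, OGD over control, lay between -0.98 and 0.99, with a median of -0.13 against -0.0018 over all tested loci. Their median size without sign was 0.25, and that of all tested loci 0.22. Of the 26 fold changes, 18 were below 0 and 8 above, where 50.3% of all tested loci were below 0. Without the filter 67 members had a value, 36 of them below 0 and 31 above. Over all loci of that fit, 7919 of 16711 were below 0.

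The precision was limited. The 95% intervals of the log2 fold changes had half-widths of 0.50 to 1.90, with a median of 0.96. For 6 of the 26 members the whole interval lay between -1 and 1. For 15 it reached -1 or lower and for 12 it reached 1 or higher, so that for most members a 2-fold change in at least 1 direction was not excluded. The sign of the fold change turned under at least 1 alternative, mostly with a library left out, at 8 of the 18 tested members named here by rule. CPM of the groups did not overlap at 6 members (23.1%), 2 higher and 4 lower after OGD, against 28.0% of all tested loci, 14.0% in each direction. The 6 are Grinl1a and P2ry1 (higher) and Cacna1a, Atp6v0e2, Atp6v1d and Atp6v1g1 (lower).

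**Figure D2:**
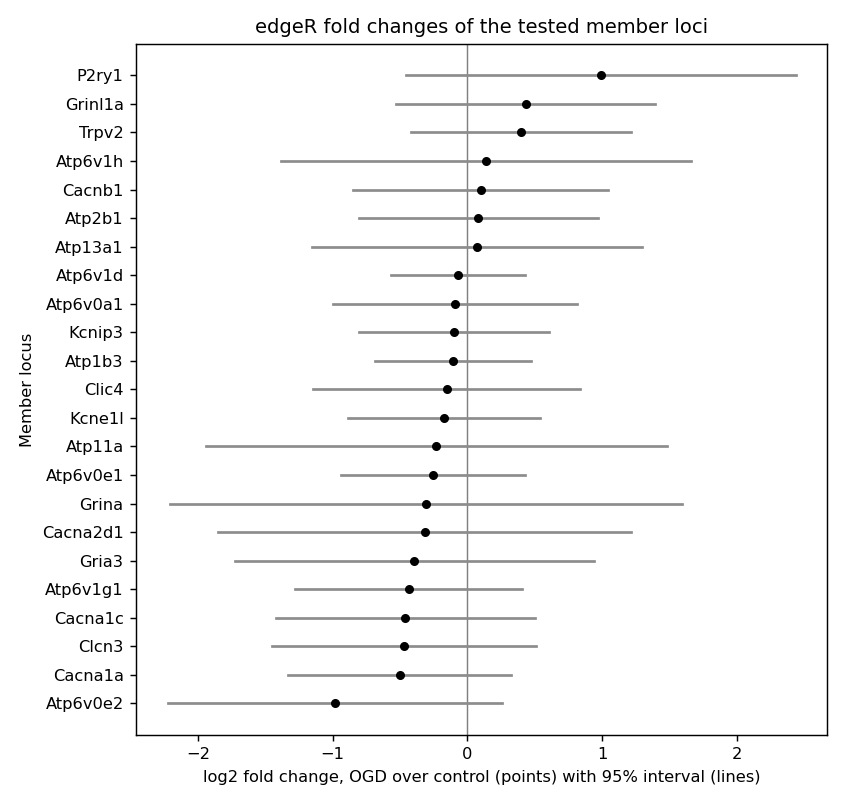
edgeR's log2 fold change of OGD over control for 23 of the 26 tested member loci (points) with its 95% interval (lines), sorted by size. Every interval includes 0, from Atp6v0e2 at -0.98 to P2ry1 at 0.99.

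Taken as a sum, the 70 members had 1815 and 1670 counts after OGD and 2049 and 1882 in control, which is 0.0686% and 0.0664% of the lncRNA counts after OGD and 0.0786% and 0.0715% in control. On the normalised scale they summed to 684 and 696 CPM after OGD and 746 and 750 CPM in control. The groups did not overlap. Without Kcne1l the sums were 488 and 570 CPM after OGD and 553 and 579 CPM in control, and the groups overlapped. The difference is a description of these libraries, with no test, and the same holds for the family sums below. Of single tested loci, 28.0% did not overlap between the groups, and no such share was taken for sums. In bulk RNA, fewer cells of a type and less RNA per cell cannot be told apart.

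**Figure D3:**
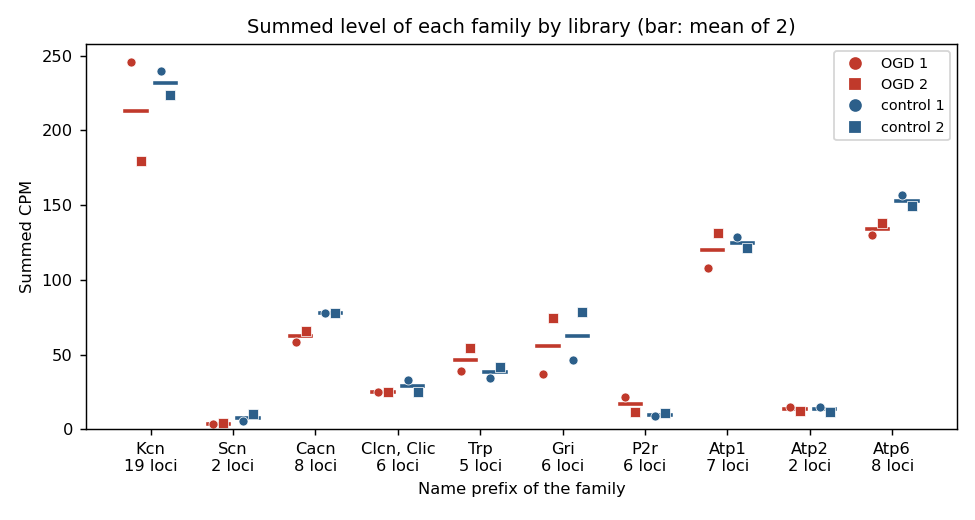
Summed CPM of each family of names in every library, with OGD in red left of control in blue and a bar at the mean of 2 libraries. Both OGD points lie below both control points for Scn, Cacn and Atp6 and above them for P2r, and the points of the other families overlap. Scn had 9 and 10 counts after OGD and 15 and 25 in control, and for P2r OGD 2 is close to control 2. Of single tested loci, 28.0% did not overlap, and no such share was taken for sums.

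Potassium channel names gave 19 loci, of which 3 were tested, among them Kcne1l and Kcnip3, and 0 passed. Kcne1l is an older name of Kcne5, an accessory subunit gene that in heterologous cells slows or silences the pore-forming subunits it joins. Its 1 transcript (chromosome X, 113583123 to 113583744, 622 bases, unspliced) had 520 and 303 counts after OGD and 530 and 428 in control. The OGD 1 library was level with control 1, and OGD 2 lay below both controls. The log2 fold change was -0.17 (SE 0.27, 95% interval -0.88 to 0.54), and 0.11 without OGD replicate 2. Coordinates are printed as the tables give them: the build named for these files is a mouse build, with fewer autosomes than the tables list.

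Kcnip3 encodes a calcium sensor of voltage-gated potassium channels that also binds DNA as the repressor DREAM. It had 61 and 73 counts after OGD and 82 and 69 in control, and a log2 fold change of -0.10 (SE 0.27). The groups overlapped, with OGD 1 the lowest library.

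The 16 potassium channel loci that were not tested were below the filter, with at most 11 counts in any library. They include Kcnj16, whose protein pairs with the main inward rectifier channel of astrocytes, with 4 and 4 counts after OGD and 2 and 7 in control, and the leak channel gene Kcnk1 with 1 and 2 counts after OGD and 2 and 2 in control. Chosen after their values were seen, Kcne3 had 0 and 4 counts and Kcnd2 0 and 3 after OGD, and both had 0 in the 2 controls, which is at or near the limit that a count of 0 allows. Kcnt1, a sodium-activated channel gene, had 9 and 0 counts after OGD and 6 and 0 in control, so its reads came from the replicate 1 libraries of both groups. Kcnc2 had 9 and 1 counts after OGD and 2 and 10 in control.

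Calcium channel names gave 8 loci, of which 4 were tested, with 1 log2 fold change above 0, 3 below 0 and 0 that passed. They summed to 58.4 and 65.9 CPM after OGD and to 77.9 and 78.1 CPM in control, without overlap. Cacna1a, the pore subunit gene of the P/Q-type channel that triggers transmitter release in neurons, had 52 and 43 counts after OGD and 88 and 53 in control. Its log2 fold change was -0.50 (SE 0.32, 95% interval -1.33 to 0.33). Of its 4 transcripts, variant i (chromosome 19, 25690529 to 25691936) had 9 and 16 counts after OGD and 41 and 9 in control, and the excess of control 1 came mostly from it. The log2 fold change was -0.16 without control replicate 1 and -0.76 without control replicate 2. Tested as deposited, the transcript with the most counts, not variant i, had a log2 fold change of -0.19.

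Cacna1c, the pore subunit gene of an L-type channel that astrocytes also use, had 48 and 69 counts after OGD and 71 and 97 in control at 1 transcript (chromosome 4, 150671812 to 150674887). The groups overlapped, since OGD 2 and control 1 were close, and the log2 fold change was -0.46 (SE 0.37). With 1 library left out it lay between -0.83, without OGD replicate 2, and -0.14, without control replicate 2, and it was -0.15 without OGD replicate 1 and -0.72 without control replicate 1. Cacna2d1 encodes the accessory subunit that binds gabapentin. Its locus had 19 and 6 counts after OGD and 17 and 15 in control, with OGD 2 apart from the other libraries, a log2 fold change of -0.32 (SE 0.59) and 0.23 without OGD replicate 2. Cacnb1, a cytoplasmic subunit gene, had 25 and 25 counts after OGD and 30 and 19 in control. The untested Cacna1g, the gene of a low-voltage-activated pore, had 5 and 10 counts after OGD and 3 and 2 in control. Its 3 listed transcripts include 1 that overlaps transcripts of the locus steemee, with up to 42 counts in a library.

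**Figure D4:**
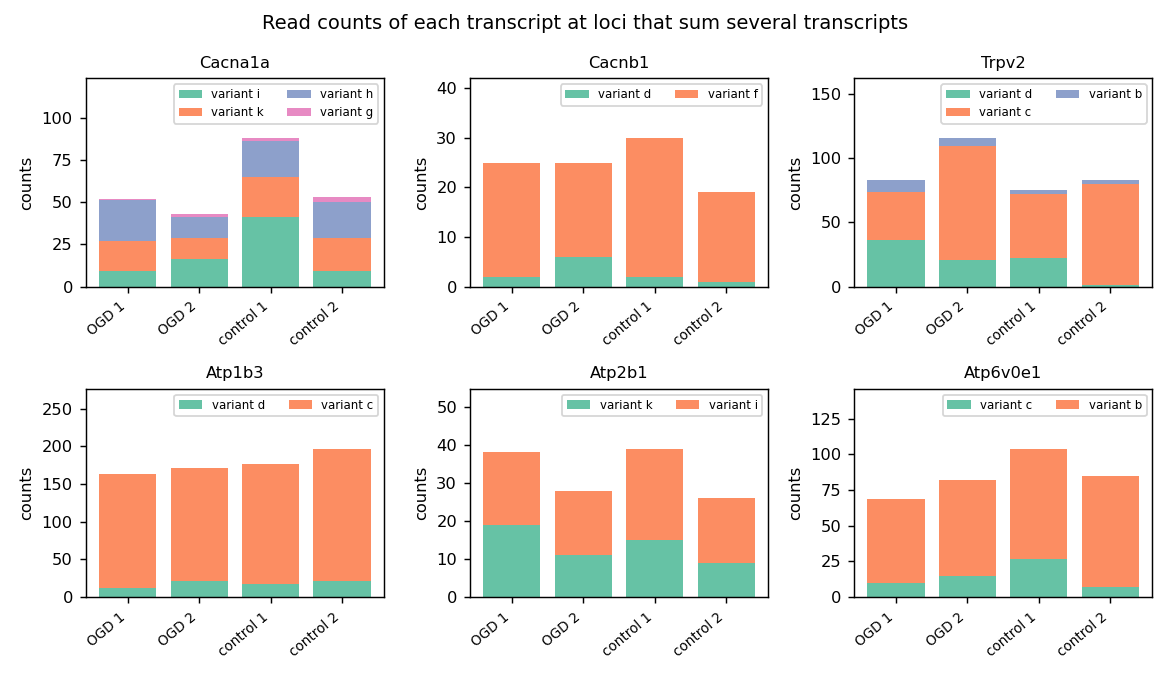
Read counts of each AceView transcript variant, stacked by library with OGD left of control, at 6 tested loci that sum more than 1 transcript. Variant i of Cacna1a is high in control 1 alone (41 counts), and variant d of Trpv2 is low in control 2 alone (1 count).

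Sodium channel names gave Scn3b and Scn8a, both below the filter, with sums of 3.39 and 4.17 CPM after OGD and 5.46 and 9.96 CPM in control. Scn3b encodes an accessory subunit of voltage-gated sodium channels. Its 3 transcripts summed to 4 and 5 counts after OGD and 8 and 21 in control. The groups did not overlap. The ratio of summed counts, scaled by the normalised library sizes used for CPM, was 0.323. Its 95% exact counting interval was 0.134 to 0.701. That interval covers counting error only, while the 2 controls themselves were far apart. Without control replicate 1, Scn3b entered the test with a log2 fold change of -2.19, an unadjusted p of 0.0328 and an adjusted p of 0.954 in edgeR. That fit has control 2 as its only control, the library with 21 counts, and assumes that it varies like the OGD pair, so the p-value rests on 1 control library. Scn8a, a neuronal pore gene, had 5 and 5 counts after OGD and 7 and 4 in control.

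Chloride channel names gave 6 loci, with Clcn3 and Clic4 tested and 0 that passed. Clcn3 encodes a chloride and proton exchanger of endosomes and synaptic vesicles. Its locus had 32 and 31 counts after OGD and 60 and 32 in control, a log2 fold change of -0.47 (SE 0.38), and 3 of the 4 libraries were alike while control 1 lay above them. Without control replicate 1 the log2 fold change was -0.025, and without control replicate 2 it was -0.80. Clic4, of the intracellular chloride channel family, had 21 and 16 counts after OGD and 26 and 17 in control. Clcn4-2, Clcn6 and Clic3 had at most 6 counts in any library.

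TRP channels are cation channels opened by heat, stretch or lipid signals. Of 5 loci, Trpv2 was tested. It had 83 and 116 counts after OGD and 75 and 83 in control, a log2 fold change of 0.40 (SE 0.31, 95% interval -0.42 to 1.21). It was 0.69 without OGD replicate 1 and 0.050 without OGD replicate 2. OGD 2 was the highest library, and OGD 1 fell between the controls on the CPM scale. Its variants c and d overlap from 48903601 to 48906398 on chromosome 10 and may divide the same reads. Variant c had 38 and 89 counts after OGD and 50 and 79 in control, and variant d 36 and 21 after OGD and 22 and 1 in control, whereas their sum was 74 and 110 after OGD and 72 and 80 in control. Tested as deposited, variant c alone had a log2 fold change of 0.043.

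Among the untested TRP loci, Trpm7, the gene of a magnesium-permeable channel with a kinase domain that is studied in anoxic neuron death, had 4 and 4 counts after OGD and 11 and 10 in control. The groups did not overlap. In the fit without a filter its log2 fold change was -1.31, with an unadjusted p of 0.0421 and an adjusted p of 0.997 in edgeR, the smallest unadjusted p of the 67 members in that fit. Trpv4, a channel of astrocyte endfeet that responds to cell swelling, had 5 and 6 counts after OGD and 1 and 4 in control. Its ratio of summed counts was 2.29, with a 95% exact counting interval of 0.733 to 8.40. Both loci are named after their values were seen.

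Of the 6 loci with a Gri prefix, Gria3, Grina and Grinl1a were tested and 0 passed. Gria3 encodes a subunit of AMPA receptors, the fast glutamate receptors of neurons. Its transcript (chromosome X, 127804569 to 127804836, 268 bases) had 49 and 102 counts after OGD and 80 and 128 in control. Both replicate 2 libraries lay above both replicate 1 libraries, and the log2 fold change was -0.39 (SE 0.51, 95% interval -1.73 to 0.94). Grina had the same order, with 9 and 28 counts after OGD and 16 and 32 in control. Grik2, a kainate receptor subunit gene, Grin1, the obligatory NMDA receptor subunit gene, and Grit, now Arhgap32, had at most 5 counts in any library. Grinl1a, now Polr2m, had 35 and 38 counts after OGD and 23 and 33 in control, a log2 fold change of 0.43 (SE 0.37). It was 0.15 without control replicate 1, 0.80 without control replicate 2 and 0.29 without OGD replicate 2. The GABA receptor prefix found Gabrg1 alone, with 0 counts in all 4 libraries.

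Purinergic receptors bind ATP and related nucleotides, by which astrocytes signal to one another. They gave 6 loci, of which P2ry1 was tested. The 6 summed to 21.8 and 11.7 CPM after OGD and 8.73 and 10.8 CPM in control, without overlap. OGD 2 and control 2 were close, at 28 and 27 counts, and only OGD 1 stood apart, with 58. P2ry1 encodes a G protein-coupled ADP receptor that raises calcium in astrocytes. Its transcript (chromosome 2, 151314797 to 151320380) had 31 and 12 counts after OGD and 10 and 12 in control, or 8.34 ± 4.72 CPM and 4.21 ± 0.808 CPM (SD of 2 libraries). Only OGD 1 stood apart, and OGD 2 had the same count as control 2. The log2 fold change of 0.99 (SE 0.56, 95% interval -0.46 to 2.44) was the highest of the 26 tested members. It was 0.26 without OGD replicate 1 and 1.46 without OGD replicate 2.

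The ion channel receptor genes of this family had few counts. P2rx4 had 8 and 7 counts after OGD and 11 and 1 in control. P2rx3, chosen after its values were seen, had 11 and 1 counts after OGD and 1 and 2 in control, so that OGD 1 alone was high there too. The microglial receptor gene P2ry13 had 5 and 7 counts after OGD and 1 and 6 in control. Beside it, the microglia and macrophage names summed to 10.9 and 35.9 CPM after OGD and 28.4 and 43.4 CPM in control; their part in the values of P2ry13 was not tested.

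Among the pumps, the sodium and potassium ATPase gave loci that include Atp1b3 and Atp1a2andAtp1a4. Atp1b3, a beta subunit gene, was the locus of this pump with the most counts, at 163 and 171 after OGD and 177 and 197 in control. The 4 values were close, and the log2 fold change was -0.11 (SE 0.22, 95% interval -0.68 to 0.47). Most counts came from its unspliced variant c (chromosome 8, 104190721 to 104192693). Its variant d overlaps the locus vorrer by position, which had 87 and 64 counts after OGD and 124 and 63 in control. Atp1a2andAtp1a4 joins the glial alpha subunit gene with a neighbour, and had 8 and 4 counts after OGD and 5 and 3 in control.

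Loci named Atp11 and Atp13 are not subunits of this pump. Atp11a had 15 and 7 counts after OGD and 20 and 7 in control, with both replicate 1 libraries above both replicate 2 libraries, and it lies within a transcript without a gene name that had 62 and 36 counts after OGD and 48 and 69 in control. Atp13a1 had 10 and 13 counts after OGD and 14 and 9 in control. At both loci the groups overlapped.

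Calcium pump names gave 2 loci. Atp2b1, which encodes a calcium pump of the plasma membrane, had 38 and 28 counts after OGD and 39 and 26 in control, a log2 fold change of 0.08 (SE 0.34), with both replicate 1 libraries above both replicate 2 libraries. Atp2a2, the gene of the pump that fills the endoplasmic reticulum with calcium, had at most 3 counts in any library.

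The vacuolar proton pump acidifies lysosomes and endosomes. Its names gave 8 loci, of which 6 were tested, with 1 log2 fold change above 0, 5 below 0 and 0 that passed, and a median of -0.17. They summed to 130 and 138 CPM after OGD and 156 and 149 CPM in control, without overlap. Atp6v1d, a subunit gene of the rotor stalk, had 172 and 152 counts after OGD and 183 and 170 in control, at 1 transcript (chromosome 6, 102036008 to 102047607). Its log2 fold change of -0.07 (SE 0.19, 95% interval -0.57 to 0.43) had the narrowest interval of the 26, and leaving out any 1 library left it between -0.07 and -0.05.

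Atp6v0e2, which encodes a small subunit of the membrane sector, had 13 and 6 counts after OGD and 21 and 18 in control, or 3.70 ± 1.69 CPM and 7.41 ± 0.333 CPM (SD of 2 libraries). Both OGD libraries lay below both controls. The log2 fold change was -0.98 (SE 0.48, 95% interval -2.22 to 0.26), with an unadjusted p of 0.0965 and an adjusted p of 1.00 in edgeR, and over the alternatives the smallest adjusted p was 0.873. The log2 fold change was -1.53 without OGD replicate 1 and -0.59 without OGD replicate 2. Atp6v1g1, a stalk subunit gene, had 35 and 47 counts after OGD and 56 and 60 in control, a log2 fold change of -0.43 (SE 0.32), and -0.16 without OGD replicate 1 and -0.75 without OGD replicate 2. The groups did not overlap at this locus either.

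Atp6v0e1, the paralog of Atp6v0e2, had 69 and 82 counts after OGD and 104 and 85 in control, a log2 fold change of -0.25 (SE 0.26), and -0.055 without OGD replicate 1, -0.46 without OGD replicate 2 and -0.17 without control replicate 1. On the CPM scale OGD 2 was level with control 2. Variant c of this locus had 10 and 15 counts after OGD and 27 and 7 in control. Atp6v0a1, a gene of the membrane-sector subunit that helps form the proton path, had 33 and 22 counts after OGD and 35 and 26 in control, and Atp6v1h, a regulatory subunit gene, 12 and 12 after OGD and 17 and 6 in control. The groups overlapped at all 3. Atp6v0d2 had 1 count in each library and Atp6v1c1 had 10 and 9 after OGD and 13 and 9 in control.

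Since same-numbered libraries were most alike, the ratio of OGD to control was also taken within each replicate number, on the log2(CPM + 1) scale. The ratio was above 0 in both numbers at 5 of the 26 members and below 0 in both at 11, and it changed sign between numbers at 10. These counts were not taken over all tested loci, so they cannot be set against a background. P2ry1 was at 1.45 in number 1 and 0.05 in number 2. Atp6v0e2 was at -0.55 and -1.22 and Cacna1c at -0.49 and -0.41.

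**Figure D5:**
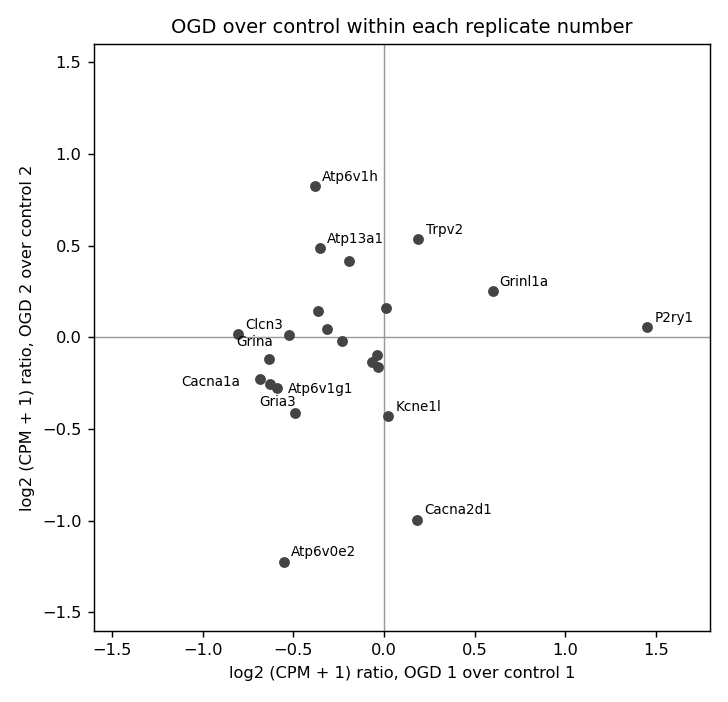
Log2(CPM + 1) ratio of OGD over control within replicate number 1 (x axis) and number 2 (y axis) for 23 of the 26 tested members, each point a locus, with loci far from 0 named. The lower left quadrant holds 10 of these loci, the upper right 4, and 9 lie in quadrants where the numbers differ in sign. No share over all tested loci was taken for these counts.

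A list of other genes outside the prefixes, mostly of ion handling and of transmitter receptors, was counted in the same fit. Of 80 listed genes, 19 had a locus and 9 were tested, with 0 that passed in either direction, 6 log2 fold changes above 0 and 3 below, and a median of 0.25 against -0.0018 over all tested loci. The 3 with the smallest unadjusted p were Abcc9, Kctd1 and Tpcn2. Abcc9, the regulatory subunit gene of an ATP-sensitive potassium channel, had 85 and 54 counts after OGD and 6 and 17 in control, without overlap. Its log2 fold change was 2.61 in edgeR (SE 0.58, 95% interval 1.10 to 4.12), at an unadjusted p of 0.0071 and an adjusted p of 1.00. Kctd1, named for a domain it shares with potassium channels, encodes a transcriptional repressor and not a channel. It had 41 and 36 counts after OGD and 28 and 27 in control, also without overlap, and Tpcn2, a lysosomal channel gene, 11 and 11 after OGD and 11 and 7 in control. Itpr1, the gene of an intracellular calcium release channel, had 98 and 114 counts after OGD and 92 and 146 in control. Lrrc8a, the essential subunit gene of the volume-regulated anion channel, had 58 and 39 counts after OGD and 56 and 54 in control.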

How the data were processed

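The authors deposited 1 table per library of 20524 transcripts with raw read counts, FPKM and transcript length, per the file headers. HISAT2, StringTie and the mouse build mm9 are named in the submitters' processing notes; the counting program is not given in the sources used here. Per library, FPKM gave the same underlying total at all transcripts above 0 within 0.1%. Counts were summed per name and chromosome, and tested with edgeR 4.0.16 in R 4.3.3 (filterByExpr, TMM, quasi-likelihood F test on group, Benjamini-Hochberg over 9581 loci, threshold 0.05). SEs are approximate, taken from the fold change and its F value, and 95% intervals use the fit's degrees of freedom. CPM are TMM-normalised. The steps were also run on simulated counts, drawn with a trend of spread over all loci and no likeness between same-numbered libraries. That run cannot show how the test behaves where same-numbered libraries are alike, and its outcome is not given here. Alternatives were DESeq2 1.42.0, median-of-ratios factors, totals implied by FPKM, other filters, transcripts as deposited, a block for the replicate number, and leaving out 1 library at a time. RefSeq was used for names only.

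Members and lists were chosen with earlier results of these data known. The text names members past the threshold, up to 10 tested members per direction with the smallest p, the locus with the most CPM of each family, the 5 members with the most CPM, members with at most 3 counts in both libraries of a group and at least 10 in each of the other (0 were found), and the 3 other ion-handling genes with the smallest p; further loci were picked after their values were seen. Some members are counted but not reported here.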

Additional observations from a re-analysis of the deposited data

How the results depend on the processing

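The count of 0 members called was 0 under all 11 alternatives, with 17 to 67 members tested and a smallest adjusted p of 0.873, at Atp6v0e2 with the replicate number as a block. Over all loci, the 8 called became 38 with DESeq2, 0 without a low-count filter, 14 with a stricter filter, 1 with transcripts as deposited, 21 with the replicate block, and 0 to 12 with a library left out. What a replicate number marks is not stated in the labels; across all tested loci the deviations of replicate 1 libraries from the mean of their group had a correlation of 0.300 between the groups. Of 193 values of 18 named members, 179 kept direction and 14 changed sign at 8 members, 12 of them with a library left out. Between the 4 left-out libraries the log2 fold change lay from -0.21 to 0.35 at Atp13a1, -0.24 to 0.050 at Atp1b3, -0.12 to 0.33 at Atp2b1, -0.37 to 0.98 at Atp6v1h, -1.25 to 0.23 at Cacna2d1, -0.13 to 0.39 at Cacnb1, -1.12 to 0.099 at Gria3 and -0.51 to 0.11 at Kcne1l. With transcripts as deposited, Atp2b1 was at -0.13 and Cacnb1 at -0.071. The members below 0 numbered 16 of 31 without OGD replicate 1, against 5231 of 10354 loci. Without control replicate 2 they numbered 21 of 31, against 5091 of 10419 loci. The cause was not tested. Depth limits most the 44 untested members, with at most 21 counts in any library.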
